A study of Mus musculus with 12 samples.

Results

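The genes described here encode histones, the proteins around which DNA is wound. They were taken by name from the gene table: every gene whose symbol starts with Hist1h, Hist2h, Hist3h, Hist4h, H2af or H3f, and H1f0, with a TPM (a share of a library's transcripts, corrected for length and scaled to a fixed total) above 0 in at least 4 of the 12 libraries. Of 74 such names, 71 of the 19252 genes in the table met this. Hist1h2ao, Hist1h2an and Hist1h4m were above 0 in 1, 3 and 1 libraries and were not members. The 71 comprised 62 replication-dependent genes (49 Hist1, 10 Hist2, 2 Hist3 and 1 Hist4) and 9 replacement genes (H1f0, H2afj, H2afv, H2afx, H2afy, H2afy2, H2afz, H3f3a and H3f3b).

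The libraries were made from liver RNA of C57BL/6 mice in 3 groups of 4. NFD mice were on a normal fat diet, HFD mice on a high fat diet, and NAC_HFD mice on high fat chow plus N-acetylcysteine, a cysteine precursor, at 2 g per litre of water. Each group was fed for 14 weeks, and the labelled age is 8 weeks, with no word on when it was taken. The labels do not say that the libraries of a group came from separate mice, so the p-values below measure only the spread between these samples, which may be technical.

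Replication-dependent histone genes sit in clusters, are transcribed mainly in S phase to package newly made DNA, and give messages that end in a stem-loop bound by SLBP in place of a poly(A) tail. Some of them also give polyadenylated messages in cells that do not divide. Replacement genes lie outside the clusters, are spliced or polyadenylated like other genes, and supply histones throughout the cell cycle, which makes them the main source of fresh histone in a tissue that rarely divides, such as adult liver. Whether the libraries were made by poly(A) selection or by removal of ribosomal RNA was not given in the sources used here, and a poly(A) step would lower the values of messages without a tail.

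The depth of the libraries cannot be read from TPM. Per library, 10864 to 11316 genes reached 1 TPM, and the mean correlation of a library with its group across genes ran from 0.978 to 0.989, a value over genes and not over replicates. The hepatocyte markers Alb, Ttr, Apoa1, Cps1, Tat, Hnf4a, Asgr1 and Serpina1a were all present, with sums of 36150 to 56320 TPM per library. In bulk liver, fewer cells of a type and less RNA per cell cannot be told apart. The HFD libraries serve in 2 of the 3 comparisons, so a high or low HFD value moves both.

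Levels differed widely between histone genes. H3f3a, which encodes the replacement histone H3 variant, had the highest mean over the 12 libraries, at 137.7 TPM, and its partner H3f3b, which encodes the same protein, was at 69.8 TPM. The other replacement genes were H1f0, the linker histone of resting cells (35.9 TPM), H2afz for H2A.Z (29.6 TPM), H2afy for macroH2A1 (28.2 TPM), H2afv for the second H2A.Z protein (10.9 TPM), H2afj for H2A.J (9.21 TPM), H2afx for the DNA damage variant H2A.X (6.49 TPM) and H2afy2 for macroH2A2 (0.049 TPM). The 6 highest replacement genes held 95.2% of the class.

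Among replication-dependent genes, Hist2h2aa2 (94.6 TPM) and Hist2h2aa1 (52.3 TPM), which encode H2A, Hist1h4h (81.9 TPM), Hist1h4n (28.1 TPM) and Hist1h4d (27.0 TPM), which encode H4, and Hist1h2bc (70.7 TPM), which encodes H2B, were highest. These 6 of 62 genes held 64.7% of the class. At the other end, Hist1h1t, the testis H1 gene, was at 0 to 0.26 TPM. Values of TPM are per length, but a poly(A) step, if used, would lower messages without a tail, so both classes may not be comparable. Many histone genes also have near-identical coding sequences. The submitters name the program RSEM, and beyond that name the sources used here do not say how reads were divided among such copies. The value of a single copy is therefore uncertain. Hist1h2bq and Hist1h2br are the clearest case: the transcripts ENSMUST00000078156 and ENSMUST00000110476 had equal TPM in all 12 libraries.

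**Figure D1:**
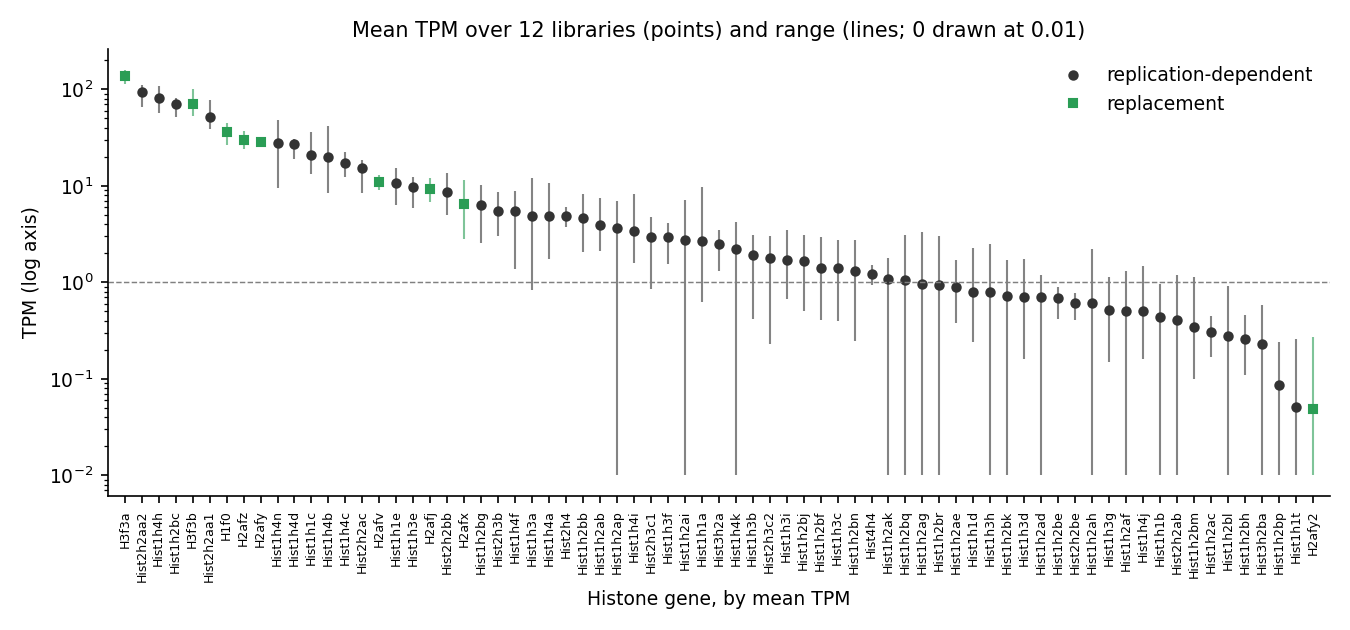
Mean TPM over the 12 libraries of each of the 71 histone genes (points, log axis) with the range over libraries (lines, values of 0 drawn at 0.01), black circles for replication-dependent and green squares for replacement genes. All but H2afy2 of the replacement genes lie above 1 TPM (dashed line), while replication-dependent genes run from Hist2h2aa2 at 94.6 TPM to Hist1h1t at 0.052 TPM.

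A total of 50 genes, 42 replication-dependent and 8 replacement, reached 1 TPM in at least 4 libraries and were tested. The 21 others (20 replication-dependent and H2afy2) had means of 0.049 to 0.964 TPM. Because a gene could reach this floor through the group in which it is high, counts over the 50 are not counts over all members. Hist1h2bk, Hist1h2bq, Hist1h2br, Hist1h3c and Hist1h3h met it only with their HFD libraries, and counts and medians over the 42 include them.

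The RefSeq annotation matched 70 of the 71 genes, and 63 had a single promoter entry of 300 bases (250 before the start and 50 after it, build GRCm38.p6). The 150 bases before the start are shown for the replication-dependent genes with the clearest differences between groups and for H3f3b as a replacement gene. Capitals mark the box CCAAT, the TATA word TATAAA or the octamer ATTTGCAT on either strand. The stretches are chr13:21750554-21750703, minus strand for Hist1h4k, chr13:23551669-23551818, minus strand for Hist1h4f, chr13:23745522-23745671, minus strand for Hist1h3c, chr13:23574208-23574357, minus strand for Hist1h2bf, chr3:96239128-96239277, minus strand for Hist2h3c2 and chr11:116024505-116024654, minus strand for H3f3b.
Hist1h4k: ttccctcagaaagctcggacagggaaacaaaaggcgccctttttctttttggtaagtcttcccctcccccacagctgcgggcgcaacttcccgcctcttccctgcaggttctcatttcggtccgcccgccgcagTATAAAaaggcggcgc
Hist1h4f: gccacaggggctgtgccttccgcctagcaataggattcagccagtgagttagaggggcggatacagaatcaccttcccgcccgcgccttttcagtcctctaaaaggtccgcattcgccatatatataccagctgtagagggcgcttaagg
Hist1h3c: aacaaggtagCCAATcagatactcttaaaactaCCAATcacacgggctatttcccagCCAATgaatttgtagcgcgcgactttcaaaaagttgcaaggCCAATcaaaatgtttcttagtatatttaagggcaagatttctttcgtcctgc
Hist1h2bf: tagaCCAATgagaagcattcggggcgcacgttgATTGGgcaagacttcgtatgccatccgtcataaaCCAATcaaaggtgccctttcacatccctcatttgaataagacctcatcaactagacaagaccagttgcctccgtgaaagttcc
Hist2h3c2: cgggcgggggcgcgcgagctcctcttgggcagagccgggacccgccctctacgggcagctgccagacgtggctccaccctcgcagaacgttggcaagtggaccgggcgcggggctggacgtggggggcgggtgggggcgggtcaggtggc
H3f3b: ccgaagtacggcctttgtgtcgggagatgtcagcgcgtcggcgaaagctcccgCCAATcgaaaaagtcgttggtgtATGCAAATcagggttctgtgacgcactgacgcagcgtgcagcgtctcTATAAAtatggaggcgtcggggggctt

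In the 300-base promoters, searched on both strands, CCAAT was found in 47 of 55 replication-dependent entries (85.5%), against 37.4% of all 32851 promoters. It was present in each H1, H2A, H2B and H3 entry and in 3 of 11 H4 entries. TATAAA was found in 31 of 55 (56.4%; all promoters 13.6%) and in 1 of 8 replacement entries, that of H3f3b. The octamer ATTTGCAT was found in 11 of 55 (20%; all promoters 1.74%), namely in 6 of 14 H2A and 5 of 14 H2B entries. AAACACA, the H1 box, was found in 5 of 6 H1 entries (83.3%; all promoters 7.18%). Of the 2 called replication-dependent genes, the 150 bases shown for Hist1h4k held TATAAA once and those shown for Hist2h3c2 held none of these words. The stretches shown are shorter than the 300-base entries counted above. A match describes letters only and is not evidence of a bound factor, and the words do not overlap one another.

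In HFD against NFD, 1 histone gene rose and 1 fell. Hist1h4k, a replication-dependent H4 gene, rose, and H2afx, the replacement gene for H2A.X, fell. Most other replication-dependent genes had a higher mean in HFD without passing the test, and of the replacement genes H3f3b had the largest positive fold change, 0.34, without passing. Fold changes were estimated with limma as differences of log2(TPM + 1), a scale that understates the change of genes near 1 TPM, and adjusted p-values are by Benjamini and Hochberg over all 11376 tested genes with a threshold of 0.05. The calls were 2 of 50 histone genes, against 2.78% of all tested genes (316, of which 249 or 2.19% were higher and 67 or 0.589% lower).

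Hist1h4k (ENSMUSG00000064288, chromosome 13, 21750145 to 21750553, GRCm38) was at 0.50, 0.43, 0.00 and 2.54 TPM in the 4 NFD libraries, at 4.23, 3.85, 3.37 and 3.42 TPM in HFD and at 2.17, 2.02, 1.32 and 2.68 TPM in NAC_HFD. The HFD libraries lay above all NFD and all NAC_HFD libraries, and NFD replicate 4 stood above the other NFD libraries. The log2 fold change in HFD against NFD was 1.503 (SE 0.30, limma adjusted p = 0.0235). The call was lost without NFD replicate 1, NFD replicate 2, HFD replicate 1, HFD replicate 2 or HFD replicate 4 (highest limma adjusted p = 0.0791) and with a pseudocount of 0.1.

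H2afx (ENSMUSG00000049932, chromosome 9, 44334715 to 44336077) was at 11.58, 9.52, 8.37 and 8.16 TPM in NFD, at 5.29, 6.28, 6.57 and 5.26 TPM in HFD and at 4.16, 5.31, 2.85 and 4.53 TPM in NAC_HFD. All NFD libraries lay above all libraries of the other groups, and HFD and NAC_HFD overlapped by 1 library, NAC_HFD replicate 2. In HFD against NFD it fell by 0.60 on the log2 scale (SE 0.15, limma adjusted p = 0.0475). That call was lost in 10 of the 12 fits that left out 1 library (highest adjusted p = 0.143, without HFD replicate 1). H2A.X differs from H2A by a tail that is phosphorylated beside DNA breaks, and its gene gives both a stem-loop and a polyadenylated message.

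**Figure D2:**
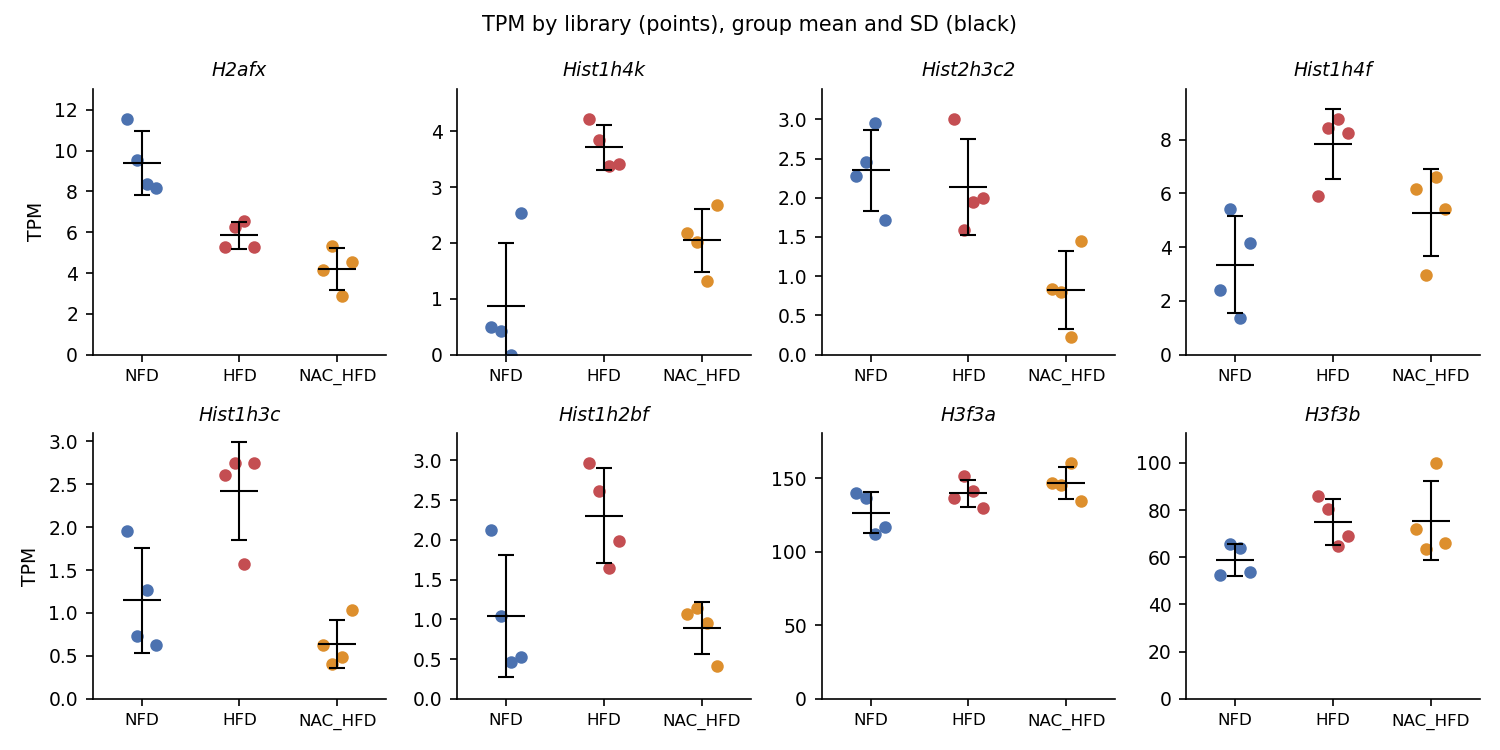
TPM in each of the 4 libraries of NFD (blue), HFD (red) and NAC_HFD (orange) for 8 histone genes, with the group mean and SD in black and axes from 0. H2afx was highest in NFD, Hist1h4k and Hist1h4f had their highest means in HFD, and Hist2h3c2 was lowest in NAC_HFD, while H3f3a and H3f3b overlapped between groups.

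Groups did not overlap for 3 of 50 histone genes in HFD against NFD, against 12.4% of all tested genes (7.78% higher and 4.57% lower). They were Hist1h4k, H2afx and Hist1h4f, another H4 gene, at 2.41, 5.43, 1.37 and 4.16 TPM in NFD, at 5.92, 8.42, 8.79 and 8.26 TPM in HFD and at 6.17, 2.96, 6.61 and 5.41 TPM in NAC_HFD. Each HFD library of Hist1h4f lay above each NFD library, and the NAC_HFD libraries overlapped both. Its log2 fold change of 1.11 (SE 0.29) did not pass (limma adjusted p = 0.0628).

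Of the 42 replication-dependent genes tested, 32 (76.2%) had a higher mean in HFD than in NFD, with a median log2 fold change of 0.31. Over all tested genes 52.7% were higher and the median was 0.01. By histone type, the counts were 3 of 3 H1 genes (median 0.24), 10 of 10 H2B genes (0.39), 7 of 10 H3 genes (0.39) and 9 of 11 H4 genes (0.56), but 3 of 8 H2A genes (-0.04). Unadjusted p-values under 0.05 were found for 13 of the 42, all higher, against 11.8% of all genes in that direction (7.3% were lower and 19.1% either way). With a pseudocount of 0.1 the median of the 42 was 0.48. Genes of the same histone type can have near-identical coding sequences. Beyond the name RSEM, how reads were divided among them was not given, so the genes may not be independent of each other.

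The count was not alike in the clusters. On chromosome 13, where the Hist1 genes lie in the stretches 21715711 to 22043658 and 23531044 to 23764412, 11 of 12 and 17 of 19 tested genes had a higher mean in HFD (medians 0.56 and 0.29). On chromosome 3, where the Hist2 genes lie from 96219885 to 96270192, 3 of 8 did, with a median of -0.04. The difference between the clusters was not tested. The Hist2 cluster holds the abundant H2A genes: Hist2h2aa2 was at 93.16, 97.35, 104.43 and 92.59 TPM in NFD, at 106.46, 112.11, 101.39 and 66.41 TPM in HFD and at 94.48, 97.52, 84.14 and 85.40 TPM in NAC_HFD. Its 3 groups overlapped, and HFD replicate 4 was the lowest library. Hist2h2aa1 was at 45.20, 56.60, 77.90 and 39.15 TPM in NFD, at 60.68, 55.17, 47.62 and 43.28 TPM in HFD and at 60.36, 42.30, 42.49 and 56.59 TPM in NAC_HFD, where NFD replicate 3 was the highest library and the groups overlapped.

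The replication-dependent H4 genes differed in level, and those of highest mean are given here. Hist1h4h was at 81.74, 102.38, 56.50 and 67.91 TPM in NFD, at 87.81, 109.63, 89.63 and 71.18 TPM in HFD and at 90.38, 56.98, 86.72 and 82.59 TPM in NAC_HFD, with groups that overlapped. Hist1h4n was at 23.88, 31.36, 9.53 and 27.67 TPM in NFD, at 47.70, 44.14, 29.46 and 34.93 TPM in HFD and at 33.06, 20.22, 16.64 and 19.11 TPM in NAC_HFD. HFD was highest on average for Hist1h4n, but HFD replicate 3 lay below NFD replicate 2, and the fold change against NFD of 0.83 did not pass (SE 0.33, limma adjusted p = 0.203). Hist1h4d was at 25.58, 30.89, 18.79 and 25.34 TPM in NFD, at 28.12, 30.69, 27.61 and 23.56 TPM in HFD and at 28.00, 25.91, 28.56 and 30.73 TPM in NAC_HFD, with all groups overlapping and NFD replicate 3 lowest.

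**Figure D3:**
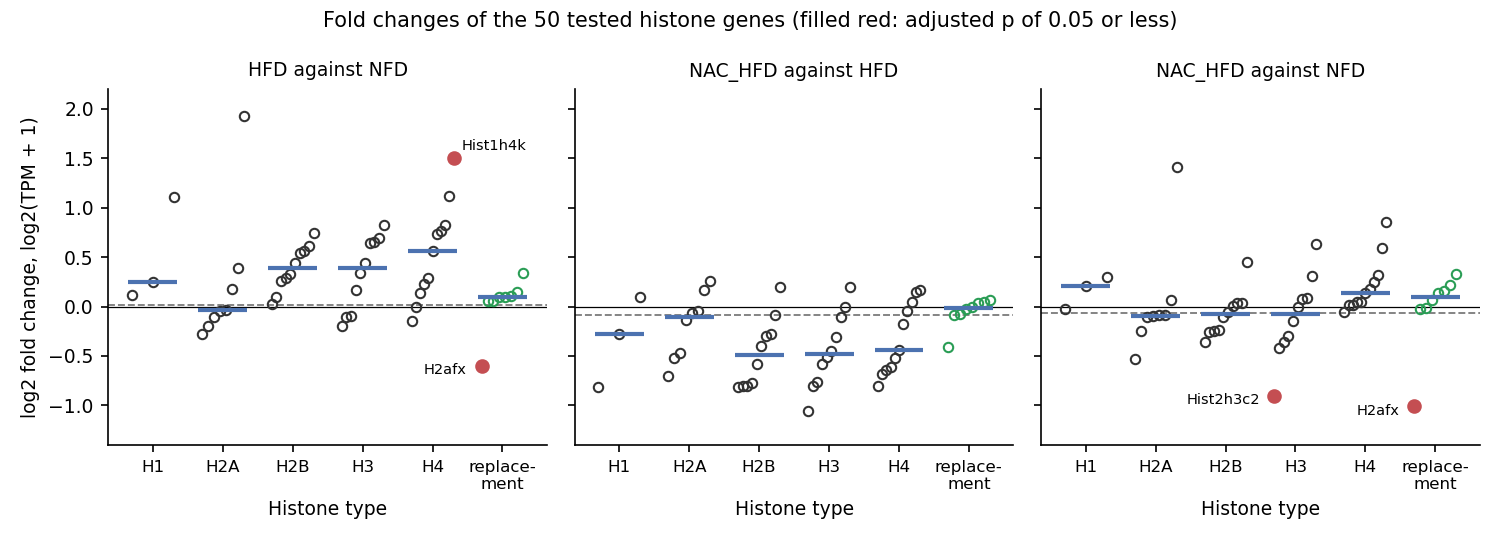
The log2 fold change of each of the 50 tested histone genes (open circles, black for replication-dependent and green for replacement) in the 3 comparisons, grouped by histone type, with the median of each type (blue bar), the median of all 11376 tested genes (dashed line) and called genes filled red. The H2B, H3 and H4 genes lie mostly above 0 in HFD against NFD and mostly below 0 in NAC_HFD against HFD, 2 comparisons that share the HFD libraries, while in NAC_HFD against NFD the medians of H2B and H3 are -0.08 each and 10 of 11 H4 genes lie above 0.

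Among the replacement genes, 7 of 8 had a higher mean in HFD than in NFD, with a median of 0.10, and none of these passed. H3f3b was at 52.39, 65.65, 64.08 and 53.75 TPM in NFD, at 85.81, 80.46, 64.88 and 69.09 TPM in HFD and at 71.84, 63.69, 100.06 and 66.07 TPM in NAC_HFD. One HFD library, replicate 3, lay within the NFD range, and the fold change was 0.34 (SE 0.14, limma adjusted p = 0.216). H3f3a was at 139.86, 136.78, 112.42 and 117.10 TPM in NFD, at 136.88, 151.79, 141.08 and 129.57 TPM in HFD and at 146.88, 145.31, 160.55 and 134.64 TPM in NAC_HFD. The groups of H3f3a overlapped (log2 fold change 0.15, SE 0.10, limma adjusted p = 0.447).

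The remaining abundant replacement genes had fold changes in HFD against NFD of 0.06 (H2afy and H2afz) to 0.10 (H1f0). H1f0 was at 32.50, 38.86, 37.23 and 26.59 TPM in NFD, at 37.96, 41.59, 32.93 and 32.40 TPM in HFD and at 37.63, 31.04, 44.44 and 37.31 TPM in NAC_HFD. H2afz was at 34.22, 31.26, 24.13 and 28.17 TPM in NFD, at 28.12, 36.65, 28.47 and 29.47 TPM in HFD and at 30.07, 24.59, 29.38 and 30.88 TPM in NAC_HFD. In both genes the 3 groups overlapped, with HFD replicate 2 highest for H2afz. H2afy was at 27.79, 26.37, 30.26 and 27.42 TPM in NFD, at 27.89, 31.32, 29.44 and 27.95 TPM in HFD and at 25.95, 27.13, 28.50 and 28.71 TPM in NAC_HFD. H2afv was at 12.69, 10.81, 9.08 and 9.42 TPM in NFD, at 10.11, 13.02, 10.44 and 11.37 TPM in HFD and at 9.68, 10.88, 11.77 and 11.53 TPM in NAC_HFD. None of the 4 passed in any comparison, and their groups overlapped. RefSeq places another gene over H2afy (Gm31485), and the sources used here do not say whether counting used strand.

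In NAC_HFD against HFD, no histone gene passed, and no gene of the whole table did (limma, 0 of 11376, percent called 0). At an unadjusted p under 0.05 there were 13 of 50 histone genes, all lower, 12 of them replication-dependent, against 16.4% of all tested genes (1870, of which 1584 or 13.9% were lower and 286 or 2.51% higher). The whole table leaned the same way: 7789 of 11376 genes had a lower mean in NAC_HFD, with a median log2 fold change of -0.08. The replication-dependent genes lay below this, with 34 of 42 lower and a median of -0.42. Scaling by median of ratios moved the median of all genes to 0.00 and gave 29 of 42 lower with a median of -0.33, and quantile normalization gave 28 of 42 and -0.30. Single libraries moved the median as well: without HFD replicate 2 it was -0.24 and without NAC_HFD replicate 2 it was -0.25, each with 29 of 42 lower. With a floor of 5 TPM it was -0.18, with 16 of 21 lower.

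The replacement genes had a median of -0.02, with 5 of 8 lower. That sign did not hold under other scalings, since the median was 0.08 under median of ratios and 0.07 under quantile normalization. By type, the replication-dependent medians were -0.49 for H2B (9 of 10 lower), -0.48 for H3 (9 of 10), -0.44 for H4 (8 of 11), -0.27 for H1 (2 of 3) and -0.10 for H2A (6 of 8). On chromosome 13, 11 of 12 and 16 of 19 genes of the 2 Hist1 stretches were lower, and on chromosome 3, 6 of 8 Hist2 genes with a median of -0.06.

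Hist1h3c, a replication-dependent H3 gene (ENSMUSG00000069310, chromosome 13, 23745042 to 23745521), had the smallest adjusted p of the histone genes. It was at 1.96, 0.73, 1.27 and 0.63 TPM in NFD, at 2.61, 2.75, 1.57 and 2.75 TPM in HFD and at 0.63, 0.40, 0.49 and 1.04 TPM in NAC_HFD. The highest NAC_HFD library lay under the lowest HFD library, and NFD overlapped both. The fold change against HFD was -1.06 (SE 0.19, limma adjusted p = 0.0515). It passed without HFD replicate 3 or without NAC_HFD replicate 1 (lowest limma adjusted p = 0.0323). Outside HFD, Hist1h3c reached 1 TPM only in NFD replicates 1 and 3 and NAC_HFD replicate 4. It thus met the floor only with its HFD libraries, and its p-values cannot be read as support for a difference.

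Groups did not overlap for 9 of 50 histone genes in NAC_HFD against HFD (10.2% of all tested genes), with 8 lower (8.66% of all genes were lower without overlap) and Hist4h4 higher (1.56%). The 8 were all replication-dependent: Hist1h3c, Hist1h4k, Hist2h3c2 and the H2B genes Hist1h2bc, Hist1h2bf, Hist1h2bg, Hist1h2bq and Hist1h2br. Of these, Hist1h3c, Hist1h2bq and Hist1h2br met the floor only with their HFD libraries, so their separation cannot be read as support for a difference. Hist1h2bq and Hist1h2br also share a transcript value and are not separate observations. Hist1h2bc, the most abundant H2B gene, was at 73.48, 79.40, 75.19 and 68.74 TPM in NFD, at 79.53, 81.06, 70.73 and 71.08 TPM in HFD and at 68.74, 63.95, 52.14 and 64.78 TPM in NAC_HFD. Its NAC_HFD libraries were the lowest of the 12, level with NFD replicate 4 at their top (log2 fold change against HFD -0.28, SE 0.10, limma adjusted p = 0.197).

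Hist1h2bf was at 2.12, 1.04, 0.46 and 0.53 TPM in NFD, at 2.97, 2.61, 1.64 and 1.99 TPM in HFD and at 1.07, 1.14, 0.95 and 0.41 TPM in NAC_HFD (log2 fold change against HFD -0.80, SE 0.22, limma adjusted p = 0.117). Hist1h2bg was at 6.52, 6.58, 2.56 and 7.80 TPM in NFD, at 10.31, 9.61, 7.80 and 6.49 TPM in HFD and at 6.22, 2.89, 4.24 and 5.33 TPM in NAC_HFD (-0.77, SE 0.27, limma adjusted p = 0.198). In both genes the HFD libraries lay above NAC_HFD and overlapped NFD. Hist1h2bq was at 1.26, 0.00, 0.00 and 3.11 TPM in NFD, at 1.35, 1.27, 1.37 and 2.45 TPM in HFD and at 0.22, 0.82, 0.05 and 0.95 TPM in NAC_HFD, and Hist1h2br, which shares its main transcript value, was at 1.20, 0.00, 0.00 and 3.01 TPM in NFD, at 1.12, 1.08, 1.07 and 2.31 TPM in HFD and at 0.00, 0.85, 0.00 and 0.77 TPM in NAC_HFD. Neither passed against HFD (limma adjusted p = 0.347 and 0.363). NFD spanned the values of both other groups for these copies. Hist4h4, an H4 gene outside the large clusters, was at 0.94, 1.19, 1.27 and 1.19 TPM in NFD, at 1.02, 1.19, 1.18 and 1.15 TPM in HFD and at 1.53, 1.28, 1.32 and 1.33 TPM in NAC_HFD. NAC_HFD was highest of the 3 groups for Hist4h4 without overlap, by 0.15 on the log2 scale against HFD (SE 0.09, limma adjusted p = 0.445).

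**Figure D4:**
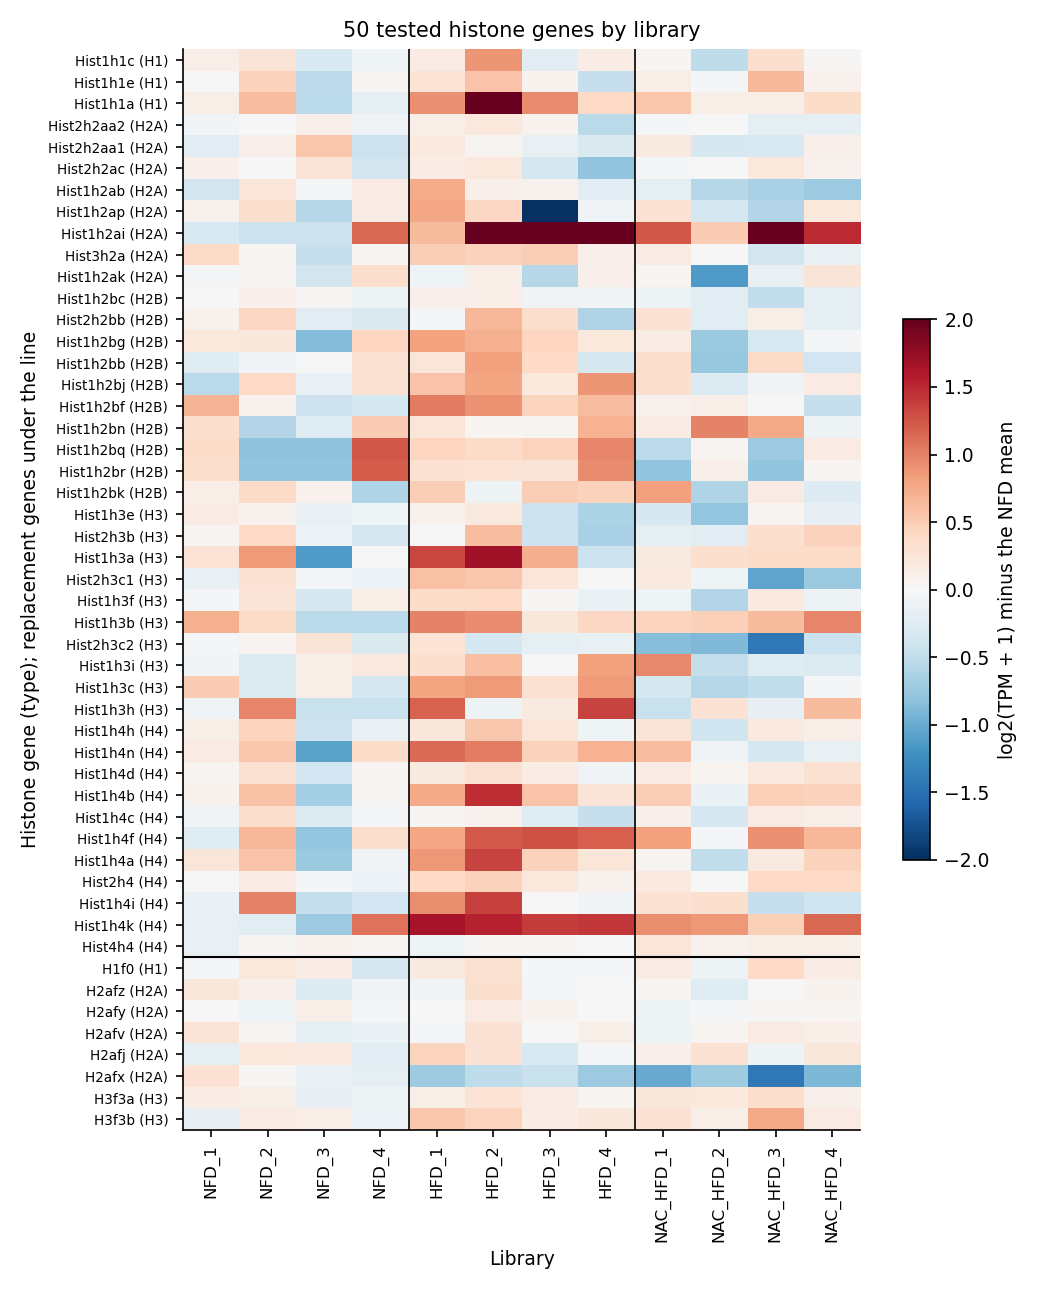
Each of the 50 tested histone genes (rows, by type, replacement genes under the black line) in each library (columns), as log2(TPM + 1) minus the NFD mean, red for higher and blue for lower, with colours capped at 2 and -2. The H4, H3 and H2B rows are mostly red in HFD replicates 1 and 2, the H2afx row is blue in every HFD and NAC_HFD library, and NFD replicate 3 is mostly blue.

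In NAC_HFD against NFD, 2 histone genes fell and none rose, against 5.28% of all tested genes called (601, of which 401 or 3.52% were lower and 200 or 1.76% higher). H2afx fell by 1.01 on the log2 scale (SE 0.15, limma adjusted p = 0.00494), from 9.41 ± 1.57 to 4.21 ± 1.03 TPM (SD, n = 4). It passed under every other setting and with any 1 library left out (highest adjusted p = 0.0222). Both groups on the high fat diet thus had lower H2afx than NFD, and the difference between them, -0.41 (SE 0.15), did not pass (limma adjusted p = 0.199).

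Hist2h3c2, a replication-dependent H3 gene of the Hist2 cluster (ENSMUSG00000081058, chromosome 3, 96238479 to 96239127), was at 2.28, 2.45, 2.95 and 1.71 TPM in NFD, at 3.01, 1.59, 1.94 and 2.00 TPM in HFD and at 0.83, 0.80, 0.23 and 1.45 TPM in NAC_HFD. NFD and HFD overlapped, and all NAC_HFD libraries lay below both. It fell by 0.90 against NFD (SE 0.19, limma adjusted p = 0.0202), and the fold change against HFD of -0.80 did not pass (SE 0.19, limma adjusted p = 0.087). The call against NFD was lost without NFD replicate 1 or NFD replicate 3 (highest adjusted p = 0.0547) and when only the 2 groups were fitted.

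Groups did not overlap in NAC_HFD against NFD for 3 of 50 histone genes (12% of all tested genes, 8.52% lower and 3.52% higher): H2afx and Hist2h3c2, lower, and Hist4h4, higher. The replication-dependent genes as a class were close to even in this comparison, with 22 of 42 higher and a median of 0.01, while all genes had a median of -0.07. The sign of that median was not stable: it was -0.01 when TPM was rescaled within the gene table, and with 1 library left out it ran from -0.10 (without NAC_HFD replicate 1, 16 of 42 higher) to 0.14 (without NFD replicate 2, 24 of 42 higher). The replacement genes had a median of 0.10, with 5 of 8 higher. H4 genes were higher in 10 of 11 cases (median 0.14) and the H2A, H2B and H3 genes had medians of -0.09, -0.08 and -0.08.

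The summed TPM of all 62 replication-dependent genes was 523.9 ± 59.9 in NFD, 610 ± 111 in HFD and 510 ± 50.2 in NAC_HFD (SD, n = 4), and the 3 groups overlapped. Library by library it was 524.0, 607.9, 472.6 and 491.0 in NFD, 655.3, 740.5, 558.6 and 485.7 in HFD and 566.3, 445.0, 506.6 and 521.9 in NAC_HFD. HFD replicates 1 and 2 were the highest of the 12, while HFD replicate 4 lay near the lowest NFD libraries. The 9 replacement genes summed to 305.4 ± 23.0, 337.5 ± 26.4 and 340.9 ± 30.5 TPM, also with overlap. The ratio of the sums was 1.71 ± 0.112, 1.80 ± 0.194 and 1.50 ± 0.176 in NFD, HFD and NAC_HFD, with no group apart from another. Its level would depend on the library selection, which was not given, so it does not measure histone supply.

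**Figure D5:**
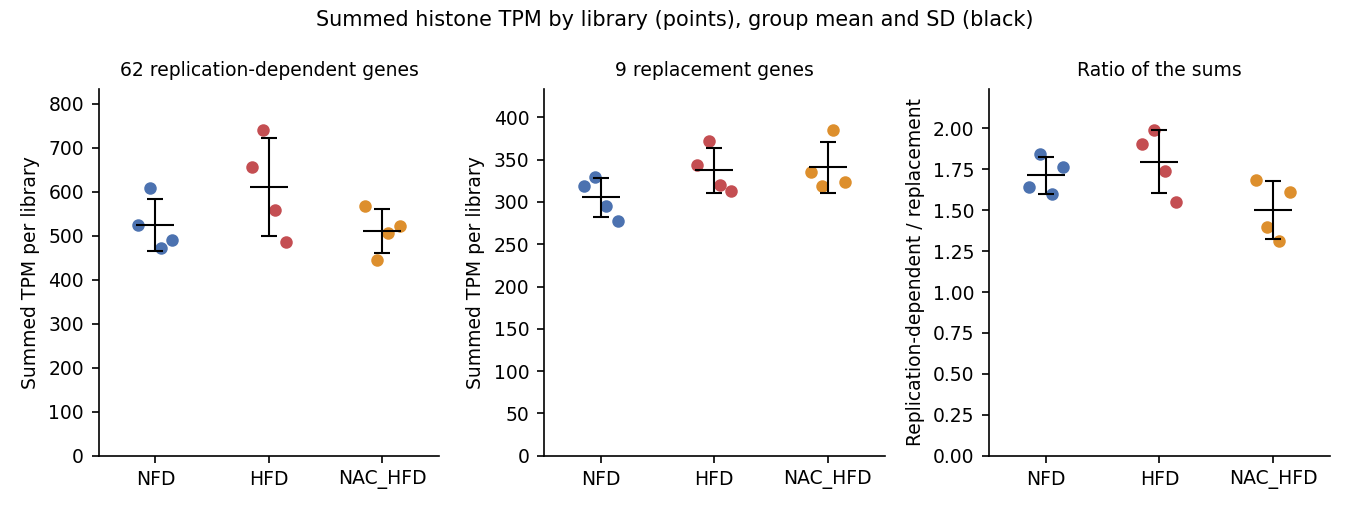
Summed TPM per library of the 62 replication-dependent genes, of the 9 replacement genes and their ratio, for NFD (blue), HFD (red) and NAC_HFD (orange), with the group mean and SD in black and axes from 0. The replication-dependent sums of HFD run from 485.7 to 740.5 TPM and overlap the other groups, and the replacement sums overlap as well.

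Within types, the sum of the replication-dependent H2B genes was the only one whose groups stood apart. It was at 112.0 ± 10.1 TPM in HFD and at 86.9 ± 8.91 TPM in NAC_HFD (SD, n = 4). The highest NAC_HFD library (99.3) lay narrowly below the lowest HFD library (101.9). All tested genes leaned lower in NAC_HFD as well (median log2 fold change -0.08), and these sums of deposited TPM were not rescaled for that. NFD, at 101.0 ± 5.99 TPM, overlapped both. The sums of the replication-dependent H1, H2A, H3 and H4 genes overlapped in the 3 comparisons. Replacement genes made up 85.0 ± 1.61%, 84.0 ± 2.98% and 88.1 ± 1.90% of all H3 TPM in NFD, HFD and NAC_HFD. Their part of all H2A TPM was 32.1 ± 2.97%, 32.1 ± 3.89% and 32.0 ± 1.67%. H1f0 made up 51.7 ± 6.78%, 47.4 ± 5.49% and 53.0 ± 1.78% of H1 TPM. Here NAC_HFD lay above HFD without overlap but narrowly, with a lowest share of 51.12% against a highest of 50.95% in HFD. HFD replicate 2 was the lowest library, at 39.28%. These sums and shares are descriptions and carry no test, and the level of the shares would depend on the library selection, which was not given.

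Genes that make and process histone messages were measured beside the histones. Of 17 genes of histone mRNA synthesis and 3-prime end processing, 14 were tested. Of these, 1 fell in HFD and in NAC_HFD against NFD, where 0.589% and 3.52% of all tested genes fell. That gene was Snrpb, a core protein of small nuclear ribonucleoproteins, at 24.3 ± 1.72, 18.6 ± 0.724 and 18.8 ± 0.911 TPM (SD, n = 4) in NFD, HFD and NAC_HFD (limma adjusted p = 0.0291 and 0.0267). Slbp, the stem-loop binding protein, was at 7.44 ± 1.41, 7.91 ± 1.005 and 7.40 ± 0.502 TPM and did not pass (limma adjusted p = 0.742 in HFD against NFD). Npat, the coactivator of histone gene transcription in S phase, was at 2.13 ± 0.294, 2.59 ± 0.284 and 2.35 ± 0.148 TPM (limma adjusted p = 0.307). Lsm10, of the particle that trims histone messages (7.84 ± 1.66, 9.17 ± 0.970 and 7.46 ± 1.30 TPM), and Srrt, a partner of the cap-binding complex (42.1 ± 5.79, 38.2 ± 3.69 and 30.8 ± 5.50 TPM), did not pass either (limma adjusted p = 0.447 in HFD against NFD and 0.0641 in NAC_HFD against NFD).

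Of 32 genes of histone chaperones and deposition, 28 were tested and 1 fell, in NAC_HFD against NFD. Over all tested genes 3.52% fell in that comparison, a share close to 1 of 28. The gene that fell was Hjurp, the chaperone of the centromeric H3 variant. It was at 54.6 ± 6.51, 62.7 ± 2.37 and 39.5 ± 7.15 TPM (SD, n = 4; limma adjusted p = 0.0421 against NFD and 0.0515 against HFD). Nap1l1, a chaperone of H2A and H2B, was at 34.7 ± 3.64, 38.4 ± 0.435 and 29.0 ± 1.95 TPM and did not pass (limma adjusted p = 0.0727 against HFD). Ruvbl1 (18.8 ± 0.992, 14.8 ± 2.12 and 15.6 ± 2.50 TPM) and Ep400 (21.3 ± 0.962, 18.5 ± 1.64 and 19.7 ± 0.636 TPM), both of complexes that deposit H2A.Z, had HFD libraries below all NFD libraries and did not pass (limma adjusted p = 0.154 and 0.217). Cenpa, the centromeric H3 gene, outside the name rule, was at 1.52 ± 0.467, 1.44 ± 0.354 and 1.31 ± 0.411 TPM.

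Of 31 genes of S phase and mitosis, 14 were tested and 0 passed in the 3 comparisons by limma (unadjusted p under 0.05 for 3, 3 and 0 genes in HFD against NFD, NAC_HFD against HFD and NAC_HFD against NFD). The DNA helicase subunits Mcm2 and Mcm4 had the smallest p. Mcm2 reached the floor of 1 TPM in the 4 HFD libraries only, so it was tested because of the group in which it was high, and its p-values cannot be read as support for a difference. Mcm2 was at 0.673 ± 0.108, 1.22 ± 0.0873 and 0.580 ± 0.182 TPM and Mcm4 at 1.05 ± 0.142, 1.67 ± 0.178 and 1.03 ± 0.0995 TPM in NFD, HFD and NAC_HFD (SD, n = 4). Their HFD libraries lay above both other groups (limma adjusted p = 0.0546 for each against NFD, and 0.0612 and 0.0905 in NAC_HFD against HFD). Pcna, the replication clamp, was at 17.6 ± 2.22, 15.8 ± 2.12 and 15.7 ± 1.26 TPM (limma adjusted p = 0.51 in HFD against NFD). Tyms, the thymidylate synthase (8.95 ± 0.445, 7.98 ± 1.10 and 7.63 ± 0.553 TPM), and Mcm7, another helicase subunit (7.66 ± 1.32, 7.27 ± 1.53 and 6.17 ± 0.790 TPM), did not pass in any comparison. The proliferation genes Mki67 (0.458 ± 0.199, 0.588 ± 0.189 and 0.287 ± 0.0640 TPM) and Top2a (0.193 ± 0.0900, 0.340 ± 0.0688 and 0.195 ± 0.0904 TPM) were below the floor, and the NAC_HFD libraries of Mki67 lay below those of HFD.

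Markers of Kupffer cells, the resident macrophages, differed in the same direction as most replication-dependent genes. All 10 had a higher mean in HFD than in NFD (median 0.56) and a lower mean in NAC_HFD than in HFD (median -0.72), with 0 called by limma (unadjusted p under 0.05 for 4 and 7), and their sums were 80.9 to 153.3, 107.9 to 270.8 and 74.7 to 147.4 TPM in NFD, HFD and NAC_HFD. No marker was at 0 in all libraries. Library by library the Kupffer sums in TPM were 127.8, 80.9, 153.3 and 110.8 for NFD, 175.0, 189.7, 107.9 and 270.8 for HFD, and 147.4, 74.7, 85.0 and 124.4 for NAC_HFD. The 4 NAC_HFD libraries had the same order by the Kupffer sum as by the replication-dependent sum given above. HFD replicates 1, 2 and 3 also had the same order by both, while HFD replicate 4 had the highest Kupffer sum and the lowest replication-dependent sum of its group. In NFD, replicate 3 had the highest Kupffer sum and the lowest replication-dependent sum, and replicate 2 the reverse. NFD replicate 1 lay above NFD replicate 4 by both sums. The part of these cells in the histone values was not tested. Of sinusoidal endothelial markers, 5 of 8 were higher in HFD than in NFD and 8 of 8 lower in NAC_HFD than in HFD. These counts were 2 of 2 and 2 of 2 for monocyte-derived macrophages and 6 of 8 and 5 of 8 for stellate cells. For erythroid cells they were 2 of 6 and 5 of 6, and for hepatocytes 2 of 8 and 3 of 8. Over all tested genes, 52.7% were higher in HFD and 7789 of 11376 lower in NAC_HFD. Markers of T and NK cells (1.36 to 3.56 TPM summed) and of B and plasma cells (1.65 to 4.21 TPM) had no gene at the floor.

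The authors' deposited table of mRNA transcripts for HFD against NFD lists 8 histone transcripts, all higher, of Hist1h1a, Hist1h1b, Hist1h1d, Hist1h2ai, Hist1h2bq, Hist1h3c, Hist1h4f and Hist1h4k, and none with an adjusted p of 0.05 or less, against 277 of the 1110 transcripts in the authors' deposited table. In the authors' deposited table, the log2 fold change of Hist1h4k was 1.97 (p = 0.00893, adjusted p = 1). The authors' deposited table for NAC_HFD against HFD lists 5, all lower, of Hist1h1a, Hist1h2bf, Hist1h2bm, Hist1h3c and Hist2h3c2. None of these had an adjusted p of 0.05 or less, against 152 of 942 transcripts in that authors' deposited table. The smallest adjusted p of the 5 histone transcripts in the authors' deposited table was 0.0566, for Hist1h3c, with a log2 fold change of -1.73. The direction of all listed transcripts was not counted. At an unadjusted limma p under 0.05, all tested genes leaned the same way. In HFD against NFD 11.8% were higher and 7.3% lower, and in NAC_HFD against HFD 13.9% were lower and 2.51% higher.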

How the data were processed

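Liver RNA libraries were grouped by their titles. Fastp, HISAT and RSEM and build GRCm38 are named, without versions or order, per the submitters' processing notes. The deposited gene and transcript tables hold TPM made by the authors. Per the file headers, the authors also deposited comparison tables of ratios (fold change), log2 ratios and p-values, with no test named in the sources used here. All 71 gene values equalled the sum of their transcripts within 0.1 TPM or 1%. No count model was used.

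The 11376 genes that reached 1 TPM in 4 or more of the 12 libraries were put on the log2(TPM + 1) scale and fitted with limma 3.58.1 (lmFit, then eBayes, trend and robust on; R 4.3.3), with 1 mean per group, two-sided tests and Benjamini-Hochberg adjustment per comparison. The script was tested on simulated data. Members, lists and tests were chosen with earlier results of these data known. Values in every library are given for genes that passed, genes whose groups did not overlap, and the 6 most abundant genes of each class; other genes were named after their values were seen. From the pathway lists, genes past the threshold, the fixed genes Mki67, Top2a, Pcna and Slbp and the 2 with the smallest p per comparison are named. Positions and promoters are RefSeq's (GRCm38.p6), matched by symbol or synonym. Same-numbered libraries did not deviate together (correlations -0.17 to 0.18), so numbers were not taken as pairs. Alternatives were other pseudocounts, floors, scalings, variance models, 2 groups only, a replicate block and leaving out each library.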

Additional observations from a re-analysis of the deposited data

Results flagged for a closer look

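A library far from the other 3 of its group was found in 11 of 156 groups tested, over the 50 tested histone genes and the sums of both classes; chance flags about 1 in 20 groups. In each case the gap from the library to the nearest of the others, divided by the range of the group, was above Dixon's 95% critical value.

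In HFD replicate 2, H2afz was at 36.65 TPM (others 28.12 to 29.47) and Hist1h2bk, an H2B gene, at 0.41 TPM (others 1.09 to 1.13). HFD replicate 4 was high for Hist1h2bq at 2.45 TPM (1.27 to 1.37) and Hist1h2br at 2.31 TPM (others up to 1.12) (these genes have a transcript of equal TPM in all libraries) and low for Hist3h2a, an H2A gene, at 2.40 TPM (3.35 to 3.49). HFD replicate 3 was low for Hist1h3c at 1.57 TPM (2.61 to 2.75). In NAC_HFD replicate 2 the H4 genes Hist1h4b at 12.96 TPM (20.18 to 20.63) and Hist1h4c at 13.68 TPM (18.98 to 19.77) were low, and in NAC_HFD replicate 1 the H3 gene Hist1h3i was high at 3.53 TPM (0.68 to 0.98). In NFD, replicate 4 was high for Hist1h2ai, an H2A gene, at 1.99 TPM (0.00 to 0.09), and replicate 2 for Hist1h4i, an H4 gene, at 6.14 TPM (1.60 to 2.27).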

How the results depend on the processing

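No called gene changed direction under the settings run, and the class sums moved by less than 1 SD. In HFD against NFD, the 2 histone calls became 0 with a pseudocount of 0.1, 1 with TPM above 0 in 4 libraries, 1 with a floor of 5 TPM, 1 with eBayes without trend and robust, and 0 with TPM above 0 and a pseudocount of 0.1 together (chosen after seeing the data); without single libraries they were 0 to 3, and the calls over all genes were 90 (without HFD replicate 1) to 375, against 316. In NAC_HFD against HFD, the replicate block called 3 genes in place of 0, and without single libraries 0 to 64 genes (64 without NAC_HFD replicate 1) and 0 to 1 histone genes were called. In NAC_HFD against NFD, the 601 genes became 394 with TPM above 0 in 4 libraries and 188 with 2 groups only, and 211 (without NAC_HFD replicate 4) to 618 without single libraries; the 2 histone calls became 1 with a floor of 5 TPM, 1 with 2 groups only, and 1 to 3 without single libraries. The cause was not tested. Fewer libraries and fewer tested genes are part of some of these settings. The replicate block called 225 genes in HFD against NFD, among them Hist1h4k and Hist1h2bf but not H2afx, and 406 in NAC_HFD against NFD, with H2afx and Hist2h3c2. Scaling changed the split of calls: in HFD against NFD 249 higher and 67 lower became 259 and 160 by quantile normalization and 188 and 99 when rescaled within the gene table, and in NAC_HFD against NFD 200 and 401 became 371 and 251 by median of ratios and 314 and 294 by quantile normalization. Depth is unknown, which limits all values near or under 1 TPM.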

Other observations

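The 42 tested replication-dependent genes were divided by their mean over all libraries after their values were seen. The 31 with a mean under 10 TPM had median log2 fold changes of 0.44 in HFD against NFD and -0.52 in NAC_HFD against HFD, 2 comparisons that share the HFD libraries, and -0.01 in NAC_HFD against NFD. The 11 with a mean of 10 TPM or more had medians of 0.12, -0.07 and 0.02. The genes under 10 TPM include Hist1h2bk, Hist1h2bq, Hist1h2br, Hist1h3c and Hist1h3h, which met the floor only with HFD libraries. Each was higher in HFD than in NFD and lower in NAC_HFD than in HFD, so the floor may add to these medians. All tested genes under 10 TPM had medians of 0.00, -0.10 and -0.09, and all tested genes of 10 TPM or more had medians of 0.03, -0.07 and -0.04.

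Of the 21 histone genes below the floor, 15 had a higher mean in HFD than in NFD on the log2(TPM + 0.1) scale (median 0.57), against 3081 of 6224 genes of the same kind. None of these histone genes passed in any comparison. Groups did not overlap in NAC_HFD against HFD for 1 of the 21 (4.76%), against 3.33% of the 6224 genes. Of those 6224 genes, 155 were lower without overlap. The 1 histone gene was Hist1h2bm, an H2B gene, whose NAC_HFD libraries (0.11, 0.13, 0.11 and 0.10 TPM) lay below all HFD libraries (0.53, 0.48, 0.36 and 1.13 TPM). Its NFD libraries were at 0.39, 0.33, 0.10 and 0.37 TPM. For Hist1h1b, a linker histone gene of dividing cells, HFD was at 0.96, 0.96, 0.39 and 0.75 TPM and NFD at 0.47, 0.13, 0.19 and 0.15 TPM, with overlap.

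Values of 3 transcripts of replacement genes, chosen after their values were seen, are given here as a description. ENSMUST00000081026 made up 45.0 ± 2.94%, 49.0 ± 3.83% and 53.0 ± 5.30% of H3f3a TPM in NFD, HFD and NAC_HFD (SD, n = 4), and the 3 groups overlapped. ENSMUST00000045788 made up 24.0 ± 2.06%, 23.0 ± 3.08% and 29.6 ± 1.21% of H2afy, the macroH2A1 gene, and here the NAC_HFD libraries (28.0 to 30.9%) lay above those of NFD (22.3 to 26.7%) and HFD (19.2 to 26.3%). The noncoding transcript ENSMUST00000138010 of H2afz was at 0.83 ± 0.11, 0.54 ± 0.12 and 0.16 ± 0.16 TPM, and the authors' deposited table lists it as lower in NAC_HFD than in HFD (log2 fold change -1.68, adjusted p = 0.315).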
